A study of Mus musculus with 6 samples.

Results

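Expression of *Chil3*, *Arg1* and 8 other genes used to describe alternative and classical macrophage activation was compared in osteoclast precursors of JAK inhibitor-treated and vehicle-treated mice. The genes were *Chil3*, *Arg1*, *Retnla*, *Nos2*, *Ptgs2*, *Thbs1*, *Il10*, *Tgfb1*, *Egr2* and *Cd38*, found by their symbols, 10 of the 24346 gene symbols in the tables. They were selected on the FPKM differences between the treatments in these same mice, so their levels and differences are given as a description and without a test. All 6 mice carried CX3CR1-EGFP, a knock-in reporter that makes cells with an active *Cx3cr1* gene green, and all received lipopolysaccharide (LPS) in the calvarial periosteum, which causes inflammatory bone destruction. From the day of the injection, 3 mice were given the orally administered JAK inhibitor ABT-317, which selectively inhibits JAK1, and 3 were given vehicle. Age and sex of these mice are not given in the sources used here, and no group without LPS was analysed here. RNA was sequenced from CX3CR1-EGFP+ cells of the calvaria, which the labels call osteoclast precursors. The sort used the reporter alone, so every cell with an active *Cx3cr1* gene could enter it.

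Macrophages respond to their surroundings with gene programs that are often described as a range between classical and alternative activation. Bacterial products and interferon-gamma drive the first, with genes of inflammatory cytokines and of nitric oxide synthesis. IL-4 and IL-13 signal through JAK kinases and STAT6 and drive the second, with mouse genes such as *Chil3* (also called Ym1), *Arg1* and *Retnla* (also called Fizz1) as its usual markers. Osteoclasts arise from cells of the monocyte and macrophage lineage, and *Chil3* is also known from mouse neutrophils and their precursors in bone marrow.

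The values are the FPKM deposited by the authors, in which fragments are scaled to the length of the transcript and the size of the library. Differences are given as JAK inhibitor minus vehicle on the log2(FPKM + 1) scale, where the added 1 shrinks the differences of low genes, and standard errors are from limma, a linear model fitted over the 11301 genes with at least 1 FPKM in at least 1 mouse. Vehicle-treated mouse 3 stood apart: its log2 values correlated with those of the other mice at 0.958 to 0.975 over genes, against 0.976 to 0.985 among the other 5 mice, so the differences are also given without it. Of the monocyte genes, *Lyz2* had 23899 FPKM or more and *Csf1r* 355 FPKM or more in every mouse, while *Fcgr1* ranged from 2.73 to 12.2 FPKM. *Cx3cr1*, whose promoter drives the reporter, had 30.1, 31.5 and 15.5 FPKM in the vehicle-treated mice and 30.1, 29.5 and 36.1 FPKM in the JAK inhibitor-treated mice. In such bulk samples, fewer cells of a type and less RNA per cell cannot be told apart.

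The 10 genes spanned levels from 0 to 10575 FPKM. *Chil3*, *Thbs1*, *Tgfb1* and *Cd38* reached 1 FPKM in every mouse. *Arg1*, *Nos2* and *Egr2* did so in vehicle-treated mouse 3 only, and *Retnla*, *Ptgs2* and *Il10* in no mouse, so 7 of the 10 genes passed the filter on low values. All JAK inhibitor-treated mice lay below all vehicle-treated mice for *Chil3*, *Arg1*, *Nos2*, *Thbs1*, *Il10* and *Cd38*. The groups overlapped for the other 4 genes, with *Retnla* listed at 0 throughout. Over all genes tested, groups did not overlap with the JAK inhibitor lower for 12.1% and higher for 9.92%, and since this contrast chose the 10 genes, nothing is read from their count. Vehicle-treated mouse 3 held the highest value of *Chil3*, *Arg1*, *Nos2*, *Thbs1*, *Egr2* and *Cd38*, and of 25.3% of all genes tested.

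**Figure D1:**
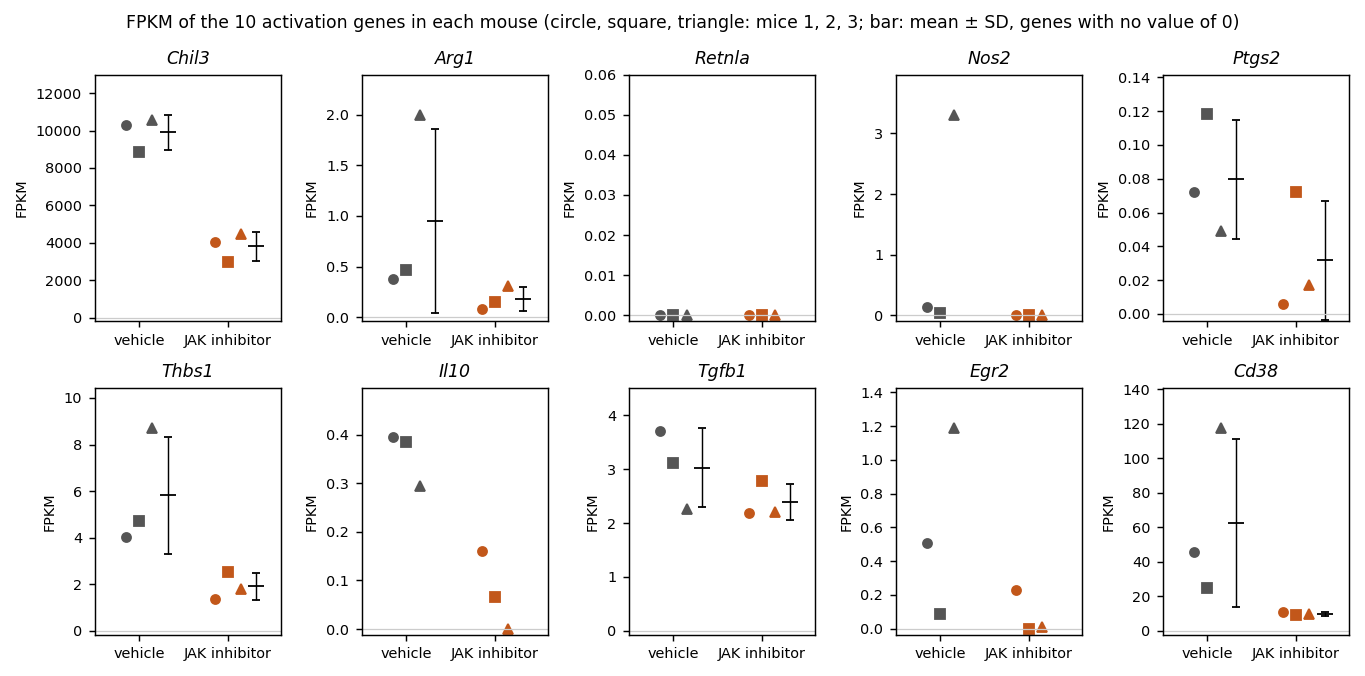
FPKM of the 10 genes in the 3 vehicle-treated and the 3 JAK inhibitor-treated mice, 1 panel per gene with its own axis and a grey line at 0. Points are single mice and, for genes with no value of 0, bars are the mean with the SD as error bar. The vehicle-treated mice sit between 8838 and 10575 FPKM for *Chil3* and the JAK inhibitor-treated mice between 2945 and 4440, while *Retnla* lies at 0 in every mouse.

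*Chil3* encodes a secreted chitinase-like protein that binds sugars but lacks chitinase activity. It was among the most abundant transcripts of the cells and was lower in every JAK inhibitor-treated mouse. It had 10281, 8838 and 10575 FPKM in the vehicle-treated mice and 4044, 2945 and 4440 FPKM in the JAK inhibitor-treated mice. The lowest vehicle-treated mouse was thus 1.99 times the highest JAK inhibitor-treated mouse. The means were 9898 ± 930 FPKM (SD, n = 3) with vehicle and 3809 ± 775 FPKM (SD, n = 3) with the JAK inhibitor, a ratio of 2.60. The log2 difference was -1.39 with a standard error of 0.16. Counted from the highest FPKM, *Chil3* ranked 4, 3 and 4 among all gene symbols with vehicle and 11, 15 and 9 with the JAK inhibitor. It made up 1.33%, 1.19% and 1.41% of the summed FPKM with vehicle and 0.533%, 0.428% and 0.600% with the JAK inhibitor. Unlike several of the low genes, *Chil3* did not rest on vehicle-treated mouse 3, whose value was 1.03 times the next highest. Without that mouse the difference was -1.34, and over 14 alternatives it lay between -1.52 and -1.22.

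*Chil3* lies on chromosome 3 (chr3:106147554-106167564, minus strand, GRCm38, GENCODE M21), beside its closest paralog *Chil4* (chr3:106201490-106219507, minus strand), which encodes another chitinase-like protein. The stretches directly upstream of both GENCODE starts were set side by side, because the genes share most of this sequence but not their level. They are from RefSeq on GRCm38.p6, written 5′ to 3′ on the minus strand, and capitals mark bases that differ between the genes or have no partner in the other.
Chil3, chr3:106167565-106167744: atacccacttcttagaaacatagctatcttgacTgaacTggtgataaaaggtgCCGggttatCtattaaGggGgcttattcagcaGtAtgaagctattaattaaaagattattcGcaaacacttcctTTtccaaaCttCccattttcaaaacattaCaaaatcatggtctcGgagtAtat
Chil4, chr3:106219508-106219687: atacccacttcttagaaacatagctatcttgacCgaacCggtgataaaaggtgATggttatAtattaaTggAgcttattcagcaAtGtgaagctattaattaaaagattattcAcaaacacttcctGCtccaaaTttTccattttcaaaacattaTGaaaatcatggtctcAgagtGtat
Of 179 aligned bases, 162 were identical (90.5%) and 17 differed. Despite this, *Chil4* had 0.074, 0.152 and 0.099 FPKM in the vehicle-treated mice and 0.077 and 0.055 FPKM in JAK inhibitor-treated mice 1 and 2, and was listed at 0 in mouse 3. It thus stayed below 1 FPKM in every mouse. The annotated transcripts of both genes are 1539 bases long and 94.4% identical over 1538 aligned bases. Of the 1465 stretches of 75 bases, the read length of the study, in the *Chil3* transcript, 125 (8.53%) also occur in *Chil4*, so reads from these stretches could be assigned to either gene. No such stretch of *Chil3* occurs in *Chil1* or *Chit1*.

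The other chitinase-like and resistin-like genes were far lower than *Chil3* per length. *Chil1*, a chitinase-like gene without chitinase activity, had 12.0, 9.11 and 6.28 FPKM with vehicle and 11.9, 5.34 and 11.8 FPKM with the JAK inhibitor, and the groups overlapped. *Chit1*, the gene of the active enzyme chitotriosidase, had 0.986 ± 0.587 FPKM (SD, n = 3) against 1.87 ± 0.809 FPKM (SD, n = 3), with a log2 difference of 0.54 (standard error 0.29) and overlapping groups. *Ctbs*, the gene of the lysosomal enzyme chitobiase, differed by -0.33 (standard error 0.15) and *Chid1* by 0.18 (standard error 0.16), both with overlapping groups. *Chil6* and *Chia1* were listed at 0 in every mouse. *Retnlg*, a resistin-like gene known from neutrophils, varied most, with 74.1, 29.8 and 13.2 FPKM in the vehicle-treated mice and 49.8, 2.51 and 53.1 FPKM in the JAK inhibitor-treated mice. *Retn*, which encodes resistin, had 0.203, 0.069 and 1.335 FPKM in the vehicle-treated mice and no value above 0 with the JAK inhibitor. *Retnlb* was listed at 0 in every mouse but vehicle-treated mouse 2, which had 0.261 FPKM. Of the 6 genes of these families that were tested, 0 differed at an unadjusted p under 0.05 in limma and 0 at an adjusted p under 0.05. Over all genes tested, 9.4% were lower and 6.57% higher with the JAK inhibitor by the first rule, and 0.0973% lower and 0.0354% higher by the second.

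*Retnla*, a marker of alternative activation that encodes a secreted resistin-like protein, was listed at 0 in all 6 mice. It lies on chromosome 16 (chr16:48842551-48844461, plus strand, GRCm38). Its annotated transcript shares no stretch of 75 bases with that of *Retnlg*, although the transcripts are 84.5% identical. Its promoter window is shown because it holds the spacing that STAT6 is known to bind, TTC and GAA with 4 bases between them, in capitals. The match begins 145 bases upstream of the RefSeq start at chr16:48842609 and 87 bases upstream of the GENCODE start given above.
Retnla, chr16:48842449-48842488: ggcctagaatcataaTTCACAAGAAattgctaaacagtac
Promoter windows of 300 bases around the start were available for *Chil3*, *Retnla*, *Ptgs2*, *Tgfb1*, *Egr2* and *Cd38* and were searched on both strands for 6 motifs, with distances counted from the RefSeq start. Among those of these genes that held a match, only *Retnla* has different starts in RefSeq and GENCODE. The STAT6 spacing occurred in *Retnla* alone among these and in 6.95% of all 32851 windows. The STAT motif TTCNNNGAA occurred in *Chil3* alone, as TTCTTAGAA 172 bases upstream of its start, and in 8.3% of all windows. The same letters stand near the left end of both stretches printed for *Chil3* and *Chil4*. The C/EBP motif TTGCNNAA, held by 10.8% of windows, occurred in *Ptgs2* 69 bases and in *Retnla* 134 bases upstream, the latter next to the STAT6 spacing. The stretch printed for *Chil4* also holds a match on the other strand, TTCAGCAA, 103 bases upstream of its GENCODE start. At that place *Chil3* differs in the last base and has no match. The EGR motif GCGNGGGCG, held by 5.55% of windows, occurred in *Tgfb1* 122 bases upstream. The NF-kB motif, GGG and TTCC with 3 bases between them (5.56% of windows), and the AP-1 motif TGANTCA (7.81% of windows) occurred in none of the 6 genes. Such matches describe letters in these windows and do not show binding.

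*Arg1* encodes arginase 1, which splits arginine into ornithine and urea, and *Nos2* encodes the inducible nitric oxide synthase, which uses the same arginine. Both were near the lower limit of these data in all mice but one. *Arg1* (chr10:24915221-24927484, minus strand) had 0.378, 0.469 and 1.995 FPKM in the vehicle-treated mice and 0.079, 0.149 and 0.309 FPKM in the JAK inhibitor-treated mice. The groups did not overlap, but vehicle-treated mouse 3 had 4.25 times the next highest value. The means were 0.947 ± 0.908 FPKM (SD, n = 3) and 0.179 ± 0.118 FPKM (SD, n = 3). The log2 difference was -0.63 (standard error 0.33), -0.28 without vehicle-treated mouse 3, and -1.66 with a pseudocount of 0.1 in place of 1. *Nos2* (chr11:78920787-78960254, plus strand) had 0.144, 0.045 and 3.31 FPKM in the vehicle-treated mice and was at 0 in each of the 3 JAK inhibitor-treated mice. Vehicle-treated mouse 3 again stood out, with 23 times the next highest value, and no fold is given against a group listed at 0.

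Of 22 further genes of arginine and polyamine metabolism, 18 were tested, and at an unadjusted p under 0.05 in limma 4 were lower and 2 higher with the JAK inhibitor. The shares over all genes tested, 9.4% and 6.57%, apply to the later lists as well. All lists were chosen with earlier results of these data known, so their counts and medians are given as a description. *Odc1*, the ornithine decarboxylase that starts polyamine synthesis, had 50.4 ± 2.86 FPKM (SD, n = 3) with vehicle and 34.9 ± 1.33 FPKM (SD, n = 3) with the JAK inhibitor. Its log2 difference was -0.52 (standard error 0.09, unadjusted p = 0.000417, adjusted p = 0.0877 in limma). *Oaz1*, whose product antizyme inhibits that enzyme, had 296 ± 21.9 FPKM (SD, n = 3) against 408 ± 34.8 FPKM (SD, n = 3). Its difference was 0.46 (standard error 0.10, unadjusted p = 0.00103, adjusted p = 0.109 in limma). *Srm*, the spermidine synthase, differed by -0.47 (unadjusted p = 0.00678, adjusted p = 0.157 in limma). *Sat1*, the enzyme that acetylates polyamines for breakdown, differed by 0.24 (unadjusted p = 0.0205, adjusted p = 0.221 in limma). Other genes of the same steps had overlapping groups, among them *Sms*, the spermine synthase, at 0.26 and *Oaz2*, a further antizyme gene, at 0.07. *Arg2*, the mitochondrial arginase, had 5.42, 2.53 and 12.6 FPKM in the vehicle-treated mice and a mean of 1.10 ± 0.346 FPKM (SD, n = 3) in the JAK inhibitor-treated mice. *Arg2* thus exceeded *Arg1* per length in every mouse. Its difference was -1.70 (standard error 0.42, unadjusted p = 0.00296, adjusted p = 0.122 in limma) and -1.19 without vehicle-treated mouse 3.

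*Ptgs2* encodes cyclooxygenase 2, the inducible enzyme of prostaglandin synthesis, and lies on chromosome 1 (chr1:150100031-150108227, plus strand). It had 0.072, 0.118 and 0.049 FPKM in the vehicle-treated mice and 0.006, 0.072 and 0.017 FPKM in the JAK inhibitor-treated mice. The groups overlapped, and no mouse came near the 1 FPKM of the filter. Of 20 other prostanoid pathway genes, 18 were tested, and at an unadjusted p under 0.05 in limma 2 were lower and 2 higher. *Hpgd*, whose enzyme inactivates prostaglandins, had 6.47 ± 1.84 FPKM (SD, n = 3) with vehicle and 14.9 ± 2.23 FPKM (SD, n = 3) with the JAK inhibitor. Its difference was 1.11 (standard error 0.20, unadjusted p = 0.00032, adjusted p = 0.0823 in limma). *Ptger4* and *Ptger3* encode receptors for prostaglandin E. *Ptger4* differed by 0.39 (unadjusted p = 0.0222, adjusted p = 0.227 in limma) and *Ptger3* by -0.55 (unadjusted p = 0.0237, adjusted p = 0.233 in limma). *Ptges2*, a prostaglandin E synthase, differed by -0.42 (unadjusted p = 0.00933, adjusted p = 0.171 in limma). The most abundant genes of the list did not differ beyond their spread: *Alox5ap*, which serves leukotriene synthesis, had 1023 ± 108 FPKM (SD, n = 3) against 921 ± 109 FPKM (SD, n = 3), and *Ptges3* differed by 0.05 (standard error 0.11).

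*Thbs1* encodes thrombospondin 1, a matrix protein that can release TGF-beta from its latent form, and *Tgfb1* encodes TGF-beta 1, a cytokine that restrains inflammation and is stored in bone matrix. *Thbs1* (chr2:118111876-118127133, plus strand) had 4.03, 4.73 and 8.70 FPKM in the vehicle-treated mice and 1.37, 2.54 and 1.81 FPKM in the JAK inhibitor-treated mice. The groups did not overlap, and the lowest vehicle-treated mouse had 1.59 times the highest JAK inhibitor-treated mouse. The means were 5.82 ± 2.52 FPKM (SD, n = 3) and 1.91 ± 0.590 FPKM (SD, n = 3), with a log2 difference of -1.19 (standard error 0.27) and of -0.90 without vehicle-treated mouse 3. Platelets also carry thrombospondin 1. The summed FPKM of 7 megakaryocyte and platelet genes was 24.5 to 58.5 with vehicle and 9.40 to 24.9 with the JAK inhibitor, nearly all of it from *Pf4* and *Itga2b*, while the other 5 of the 7 genes stayed below 1 FPKM in every mouse. *Pf4* had 30.0, 41.4 and 13.6 FPKM with vehicle and 16.3, 4.26 and 3.79 FPKM with the JAK inhibitor. Its part in the *Thbs1* difference was not tested.

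*Tgfb1* (chr7:25687002-25705077, plus strand) had 3.71, 3.11 and 2.25 FPKM in the vehicle-treated mice and 2.18, 2.78 and 2.21 FPKM in the JAK inhibitor-treated mice. The groups overlapped, and vehicle-treated mouse 3 had the lowest value of its group. The means were 3.03 ± 0.733 FPKM (SD, n = 3) and 2.39 ± 0.337 FPKM (SD, n = 3), and the log2 difference of -0.24 was near its standard error of 0.20. Of 27 other genes of TGF-beta activation and signalling, 17 were tested, and at an unadjusted p under 0.05 in limma 3 were lower and 3 higher. *Tgfbr3*, the co-receptor betaglycan, had 0.718 ± 0.130 FPKM (SD, n = 3) with vehicle and 2.79 ± 0.121 FPKM (SD, n = 3) with the JAK inhibitor. Its difference was 1.15 (standard error 0.19, unadjusted p = 0.000189, adjusted p = 0.0688 in limma). All its vehicle values lay below 1 FPKM, so *Tgfbr3* passed the filter through the JAK inhibitor group alone. Its p-values are therefore a description only. *Furin*, whose protease cleaves the TGF-beta precursor, had 10.4 ± 1.69 FPKM (SD, n = 3) against 5.61 ± 1.02 FPKM (SD, n = 3), a difference of -0.79. *Smad4*, the shared signal carrier of the pathway, differed by -0.68 and *Tgif1*, a repressor of SMAD targets, by 0.49. The adjusted p in limma was 0.109 for *Furin*, 0.132 for *Smad4* and 0.115 for *Tgif1*. *Tgfbi*, a matrix gene induced by TGF-beta, had 332, 318 and 691 FPKM in the vehicle-treated mice and 235 ± 22.4 FPKM (SD, n = 3) with the JAK inhibitor. Its difference was -0.83 (adjusted p = 0.182 in limma) and -0.47 without vehicle-treated mouse 3. *Cd47*, a receptor of thrombospondin 1, differed by -0.06 (standard error 0.11).

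*Il10* encodes the cytokine IL-10, which limits inflammatory responses through JAK1, TYK2 and STAT3, and lies on chromosome 1 (chr1:131019845-131024974, plus strand). It had 0.395, 0.385 and 0.294 FPKM in the vehicle-treated mice and 0.161 and 0.065 FPKM in JAK inhibitor-treated mice 1 and 2, and was listed at 0 in mouse 3. The groups did not overlap, but all values lay below the filter and the gene was not tested. A list of 14 genes of IL-10 family cytokines, receptors and genes known to respond to IL-10 had 11 tested genes, 10 of them with a log2 difference below 0. At an unadjusted p under 0.05 in limma, 6 were lower and 0 higher, and the median difference was -0.47, against -0.0035 over all genes tested. The list was chosen with earlier results of these data known, so its count and median are a description. *Prdm1*, among the lower genes, reached 1 FPKM in the vehicle group only. Without vehicle-treated mouse 3, 3 were lower and the median was -0.28. *Dusp1*, a phosphatase that switches off MAP kinases, had 126 ± 48.3 FPKM (SD, n = 3) with vehicle and 42.7 ± 2.89 FPKM (SD, n = 3) with the JAK inhibitor. Its difference was -1.47 (standard error 0.22, unadjusted p = 9e-05, adjusted p = 0.0557 in limma). *Tnfaip3*, an inhibitor of NF-kB signaling also called A20, had 18.0 ± 3.77 FPKM (SD, n = 3) against 8.03 ± 1.02 FPKM (SD, n = 3). Its difference was -1.06 (standard error 0.17, unadjusted p = 0.000171, adjusted p = 0.0665 in limma). *Bcl3* differed by -0.84 and *Sbno2*, a corepressor induced by IL-10, by -0.51, with adjusted p of 0.133 and 0.289 in limma. Without vehicle-treated mouse 3, *Sbno2* differed by -0.28 (unadjusted p = 0.123 in limma). The receptor chain *Il10rb*, at 101 ± 8.08 FPKM (SD, n = 3) and 93.1 ± 7.73 FPKM (SD, n = 3), and *Zfp36*, at 87.6 ± 7.70 FPKM (SD, n = 3) and 83.3 ± 3.46 FPKM (SD, n = 3), had overlapping groups.

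*Egr2* encodes a zinc finger transcription factor used as a marker of alternative activation, and *Cd38* encodes a surface enzyme that consumes NAD and is used as a marker of classical activation. *Egr2* (chr10:67535475-67542188, plus strand) had 0.507, 0.089 and 1.189 FPKM in the vehicle-treated mice and 0.227, 0 and 0.008 FPKM in the JAK inhibitor-treated mice. The groups overlapped, with vehicle-treated mouse 2 below JAK inhibitor-treated mouse 1. The log2 difference was -0.51 (standard error 0.31), -0.26 without vehicle-treated mouse 3 and -1.80 with a pseudocount of 0.1. Its relative *Egr1*, an immediate early gene, had 4.33, 3.94 and 10.6 FPKM with vehicle and 1.43 ± 0.395 FPKM (SD, n = 3) with the JAK inhibitor. *Egr1* differed by -1.48 (standard error 0.32, unadjusted p = 0.00126, adjusted p = 0.109 in limma) and by -1.09 without vehicle-treated mouse 3. *Nab1*, a corepressor of EGR factors, had 25.4 ± 1.21 FPKM (SD, n = 3) against 20.4 ± 0.629 FPKM (SD, n = 3), a difference of -0.31 (unadjusted p = 0.0149, adjusted p = 0.202 in limma). *Nab2* differed by -0.10 (standard error 0.22), and *Egr3*, *Egr4* and *Wt1* were listed at 0 in every mouse.

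*Cd38* (chr5:43868553-43912375, plus strand) had a larger log2 difference than the others of the 10 genes that had a value above 0 in every mouse. It had 45.8, 24.5 and 117 FPKM in the vehicle-treated mice and 11.1, 8.84 and 9.76 FPKM in the JAK inhibitor-treated mice. The vehicle-treated mice were spread widely, with an SD of 77.7% of the mean, whereas the JAK inhibitor-treated mice lay close together at 11.6%. Even the lowest vehicle-treated mouse had 2.21 times the highest JAK inhibitor-treated mouse. The means were 62.6 ± 48.7 FPKM (SD, n = 3) and 9.91 ± 1.15 FPKM (SD, n = 3), a ratio of 6.32. The log2 difference was -2.26 (standard error 0.45) and -1.67 without vehicle-treated mouse 3. Of 15 other genes of NAD metabolism, 12 were tested, and 1 was lower and 0 higher at an unadjusted p under 0.05 in limma. That gene was *Bst1*, the paralog of *Cd38* that is also known as CD157, with 21.4 ± 4.02 FPKM (SD, n = 3) with vehicle and 11.3 ± 2.36 FPKM (SD, n = 3) with the JAK inhibitor. Its difference was -0.86 (standard error 0.19, unadjusted p = 0.00132, adjusted p = 0.109 in limma) and -0.75 without vehicle-treated mouse 3. Genes of NAD synthesis had smaller differences, with -0.21 for *Nampt*, 0.23 for *Naprt* and 0.26 for *Nmnat3*. *Nadk*, the NAD kinase gene, differed by -0.04, and *Parp1*, which like *Cd38* consumes NAD, by -0.09. Each of these 5 genes had overlapping groups.

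**Figure D2:**
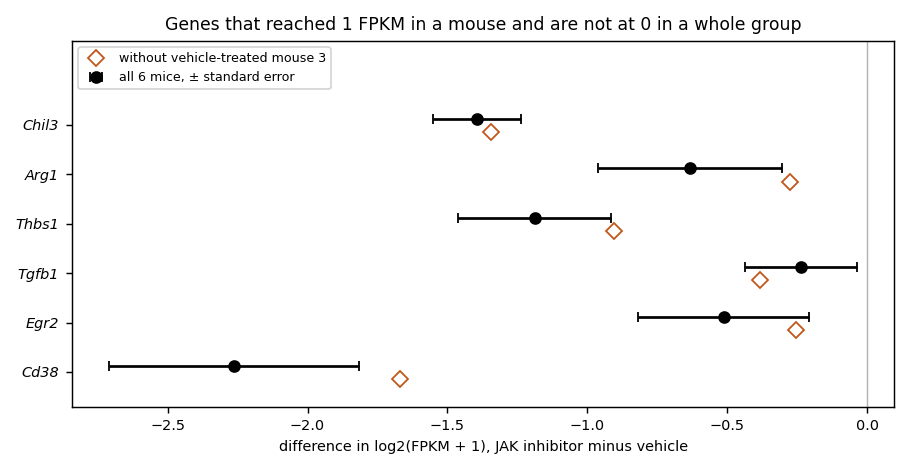
Log2 difference, JAK inhibitor minus vehicle, of *Chil3*, *Arg1*, *Thbs1*, *Tgfb1*, *Egr2* and *Cd38* on the log2(FPKM + 1) scale, over all 6 mice with the limma standard error as error bar and without vehicle-treated mouse 3. *Chil3* moves least without that mouse, from -1.39 to -1.34, and *Cd38* moves from -2.26 to -1.67.

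*Chil3* was then set against lists of other activation genes. Of 28 further genes of alternative activation, 23 were tested, and at an unadjusted p under 0.05 in limma 5 were lower and 7 higher with the JAK inhibitor. Their median log2 difference was -0.02. *Irf4* among the higher genes and *Ppargc1b* among the lower genes reached 1 FPKM only in the group where they were high. *Pparg*, a nuclear receptor of lipid metabolism, had 4.35, 10.1 and 2.14 FPKM in the vehicle-treated mice and 17.8 ± 2.38 FPKM (SD, n = 3) in the JAK inhibitor-treated mice. Its difference was 1.71 (standard error 0.38, unadjusted p = 0.00157, adjusted p = 0.109 in limma) and 1.27 without vehicle-treated mouse 3. *Clec7a*, the beta-glucan receptor dectin-1, had 39.1 ± 13.4 FPKM (SD, n = 3) against 86.3 ± 3.78 FPKM (SD, n = 3). Its difference was 1.18 (standard error 0.22, unadjusted p = 0.000476, adjusted p = 0.0886 in limma). *Il1rn* and *Il1r2*, an antagonist and a decoy receptor of IL-1, went the other way. *Il1rn* had 5.35 ± 1.37 FPKM (SD, n = 3) with vehicle and 2.51 ± 0.337 FPKM (SD, n = 3) with the JAK inhibitor, a difference of -0.84 (adjusted p = 0.118 in limma). *Il1r2* had 8.56, 4.96 and 8.31 FPKM with the JAK inhibitor against a wide spread with vehicle, a difference of -3.86 with a standard error of 0.98 (adjusted p = 0.13 in limma), which became -2.44 without vehicle-treated mouse 3. *F13a1*, the coagulation factor XIII gene and the most abundant of the list, had 606 ± 54.7 FPKM (SD, n = 3) and 633 ± 49.2 FPKM (SD, n = 3), with overlapping groups. The list thus held differences in both directions while *Chil3* was lower and *Retnla* was at 0.

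Of 32 genes of classical activation, 25 were tested, and at an unadjusted p under 0.05 in limma 12 were lower and 4 higher, with a median log2 difference of -0.33. *Sod2*, a mitochondrial antioxidant enzyme induced by NF-kB, had 71.7 ± 23.5 FPKM (SD, n = 3) with vehicle and 31.0 ± 1.39 FPKM (SD, n = 3) with the JAK inhibitor. Its difference was -1.13 (standard error 0.20, unadjusted p = 0.000385, adjusted p = 0.0877 in limma). The formyl peptide receptor gene *Fpr2* differed by -1.24 and the chemokine genes *Ccl5* by -1.84 and *Ccl3* by -0.73, each with groups that did not overlap. The adjusted p in limma was 0.102 for *Fpr2* and 0.109 for both chemokines. *Acod1*, listed as *Irg1*, whose enzyme makes itaconate, differed by -1.55 (standard error 0.45, adjusted p = 0.159 in limma). *Irf8*, a transcription factor of monocyte development, had 166 ± 47.9 FPKM (SD, n = 3) against 252 ± 14.0 FPKM (SD, n = 3), a difference of 0.64 (adjusted p = 0.169 in limma) and of 0.39 without vehicle-treated mouse 3. *Irf5*, a transcription factor used as a marker of classical activation, differed by 0.01 (standard error 0.09).

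IL-4 and its signal chain act upstream of *Chil3*, *Arg1* and *Retnla* in macrophages. A list of 14 genes, 12 of them tested, held IL-4, IL-13 and their signal chain, and also *Stat3*, *Cebpb* and *Cebpa*. At an unadjusted p under 0.05 in limma, 4 were lower (*Il4*, *Il4ra*, *Stat3* and *Cebpb*) and 0 higher, with a median difference of -0.20. *Il4* had 3.13, 5.54 and 5.42 FPKM in the vehicle-treated mice and 1.76 ± 0.560 FPKM (SD, n = 3) in the JAK inhibitor-treated mice. Its difference was -1.03 (standard error 0.24, unadjusted p = 0.00214, adjusted p = 0.117 in limma). *Il4ra*, the receptor chain shared by IL-4 and IL-13, differed by -0.63 (adjusted p = 0.249 in limma) and by -0.36 without vehicle-treated mouse 3. *Cebpb*, a transcription factor of arginase expression, had 562 ± 47.8 FPKM (SD, n = 3) against 429 ± 81.8 FPKM (SD, n = 3), a difference of -0.40 (adjusted p = 0.219 in limma). *Stat3* differed by -0.35 (adjusted p = 0.168 in limma). *Stat6* itself differed by less than 0.01 (unadjusted p = 0.977 in limma), *Jak1*, the target of the inhibitor, by -0.08 (standard error 0.11) and the common receptor chain *Il2rg* by -0.14 (standard error 0.09). *Il13* and its decoy receptor *Il13ra2* were listed at 0 in every mouse. In all 10 lists, 0 genes passed an adjusted p of 0.05 in limma, and the counts above are those at an unadjusted p.

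**Figure D3:**
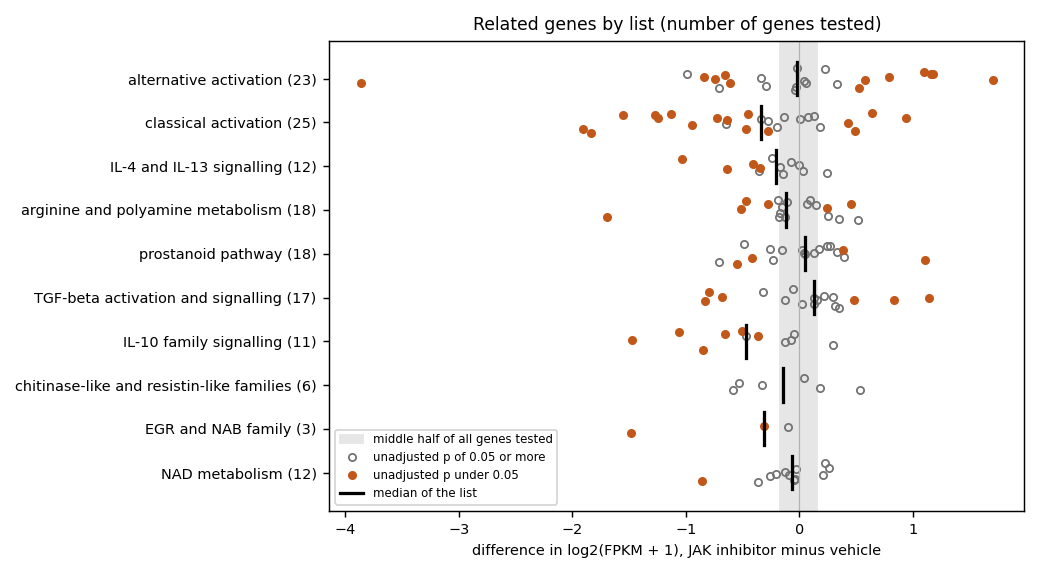
Log2 difference, JAK inhibitor minus vehicle, of each tested gene of the 10 lists, 1 row per list, with the list median as a bar. Genes at an unadjusted p under 0.05 in limma are filled and the others open, and the grey band is the interquartile range of all genes tested. The alternative activation list is spread on both sides of 0 around a median of -0.02, and the classical activation list has a median of -0.33.

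Markers of the cell types that the sorted cells could hold were summed in each mouse, and some of these sums also stood apart between the groups. The summed FPKM of 10 monocyte genes was 28433 to 37749 with vehicle and 29038 to 38477 with the JAK inhibitor, and these ranges overlap. Most of that sum was *Lyz2*, and of the 10 genes 3 (*Cd14*, *Fcgr1* and *Itgam*) were lower and 1 (*Spn*) higher at an unadjusted p under 0.05 in limma. The sum of 6 neutrophil progenitor genes, such as *Elane*, was 5437 to 9994 with vehicle and 12499 to 13477 with the JAK inhibitor, with 4 of the 6 higher and 1 lower at an unadjusted p under 0.05 in limma. The sum of 11 genes of maturing neutrophils overlapped, at 11308 to 22095 and 7516 to 15601, and was mostly *S100a8* and *S100a9*. Of the 11 genes, 4 were lower and 2 higher by the same rule, with *Lcn2* at a difference of -1.66 and *Camp* at 1.64. The sum of 10 tissue macrophage genes was 1909 to 2586 with vehicle and 890 to 1131 with the JAK inhibitor, and 5 of its 8 tested genes were lower and 0 higher by the same rule. Most of that sum was *Apoe*. Not all of the list was lower: *Adgre1* differed by -0.10 and *Vcam1* by 0.46, both with overlapping groups. *Mertk* had 2.74, 2.09 and 10.2 FPKM with vehicle and 1.34, 0.456 and 0.444 FPKM with the JAK inhibitor, and the defining genes *Timd4* and *Siglec1* stayed below 1 FPKM in every mouse. The sum of 10 eosinophil, basophil and mast cell genes overlapped, at 1851 to 3679 and 2673 to 4210. The sum of 8 lymphocyte genes was 169 to 365 with vehicle and 490 to 561 with the JAK inhibitor. The sum of 8 stromal genes stayed at 40.7 FPKM or less in every mouse. *Chil3*, *Arg1*, *Cd38* and *Thbs1* were thus lower in the mice in which the macrophage sum was lower and the neutrophil progenitor sum higher. The part of the cell mix in these differences was not tested.

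**Figure D4:**
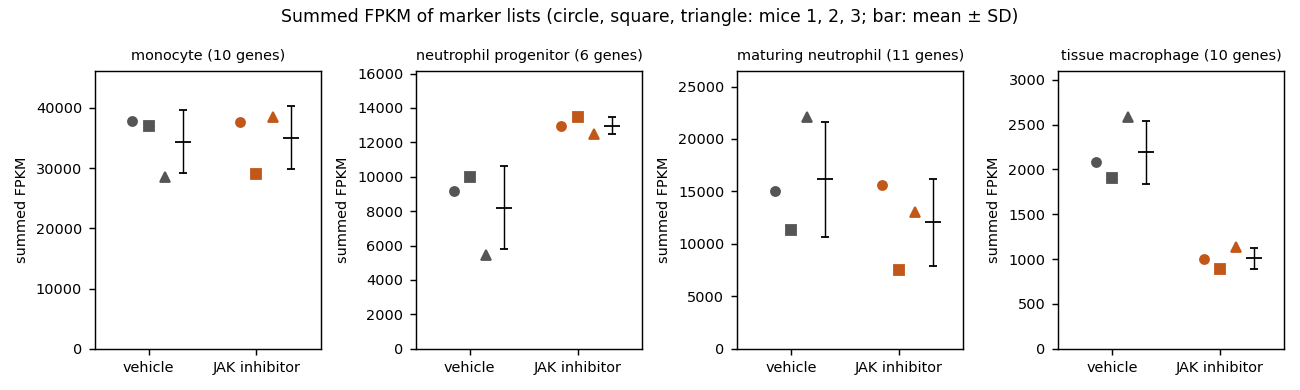
Summed FPKM of cell type marker lists in each mouse, 1 panel each for the monocyte, neutrophil progenitor, maturing neutrophil and tissue macrophage lists, each with its own axis from 0. Points are single mice and bars are the mean with the SD as error bar. The groups are apart for the neutrophil progenitor and tissue macrophage lists and overlap for the monocyte and maturing neutrophil lists.

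The genes whose pattern over the 6 mice was most like that of *Chil3* were *Marveld1*, *Wfdc21*, *Apoe*, *Srxn1* and *Ppp2cb*. Likeness was the root mean square difference of the log2 values after each gene was centred on its mean, over 7698 genes with a mean of at least 5 FPKM and no value of 0. It was 0.218, 0.230, 0.234, 0.237 and 0.240 in that order, so the 5 genes were nearly equally near. *Wfdc21* had 1422, 1112 and 1971 FPKM with vehicle and 727, 397 and 565 FPKM with the JAK inhibitor. *Apoe*, the apolipoprotein E gene and 1 of the macrophage markers, had 1658, 1479 and 2332 FPKM with vehicle and 772, 753 and 970 FPKM with the JAK inhibitor. Both had groups that did not overlap, which follows largely from picking them by likeness to *Chil3*. Unlike *Chil3*, their highest value stood further from the rest of its group. The genes most like *Arg1* were *LOC100038947*, *2310039H08Rik*, *Adck3*, *Lpxn* and *Msr1*, at 0.0715, 0.0734, 0.0837, 0.0971 and 0.106. *Msr1*, the macrophage scavenger receptor, had 23.2, 21.6 and 41.8 FPKM with vehicle and 16.7, 15.9 and 21.0 FPKM with the JAK inhibitor. *Lpxn* had 51.5, 51.9 and 99.5 FPKM with vehicle and 44.1, 43.1 and 46.7 FPKM with the JAK inhibitor. All 5 shared with *Arg1* a high value in vehicle-treated mouse 3, which follows from picking them by likeness. The added 1 flattens the low values of *Arg1*, so nearness on this scale is not an equal fold. The vehicle mean of *Arg1* was 5.29 times its JAK inhibitor mean, whereas the means of *Lpxn* were 67.7 and 44.6 FPKM.

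**Figure D5:**
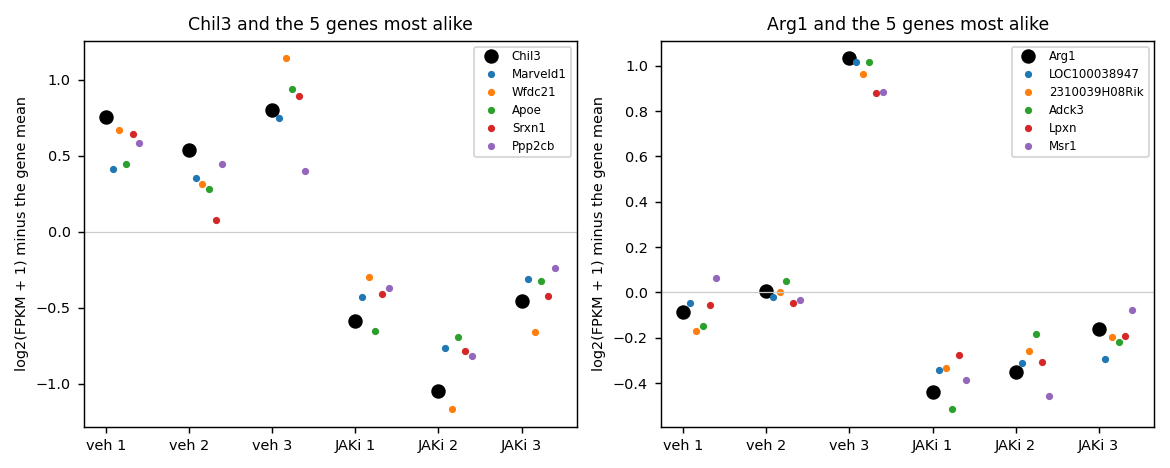
Log2(FPKM + 1) of *Chil3* and of *Arg1*, each with its 5 most alike genes, centred on each gene's mean, as 1 point per gene in each of the 6 mice. In the *Chil3* panel the points lie above 0 in the vehicle-treated and below 0 in the JAK inhibitor-treated mice, and in the *Arg1* panel vehicle-treated mouse 3 stands above the other mice.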

How the data were processed

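RNA-Seq was performed on CX3CR1-EGFP+ cells of 3 JAK inhibitor-treated and 3 vehicle-treated mice. The labels name a SMART-Seq HT kit with a Nextera library, and the study's methods give TruSeq Stranded mRNA instead. The authors deposited the FPKM of 24346 gene symbols for each mouse, and 8100 of them were at 0 throughout. The submitters' processing notes name TopHat2 2.0.13, Bowtie2 2.2.3, SAMtools 0.1.19, Cufflinks 2.2.1 and mm10, and the authors then used iDEP. The annotation and strand setting are not given in the sources used here. Depth is unknown, so no counting intervals are given.

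The 11301 genes with at least 1 FPKM in at least 1 mouse were compared as log2(FPKM + 1) with limma 3.58.1 in R 4.3.3 (empirical Bayes with a trend, 2-sided, Benjamini-Hochberg adjustment), without a replicate block. The p-values set the difference between the groups against the spread of the mice within them, moderated over all genes tested. Nothing says whether the mice came from separate cages or litters, so any effect of these is not accounted for. Genes and lists were chosen with earlier results of these data known. The filter also let in genes that reached 1 FPKM only in the group where they were high. Among these were *Tgfbr3*, *Irf4*, *Ppargc1b* and *Prdm1*, whose p-values are a description only. Named are the 10 genes, and of each list the 4 tested genes with the smallest unadjusted p and the 2 with the highest mean. Also named are the chitinase-like and resistin-like families, and for *Chil3* and *Arg1* the 5 most alike genes. *Stat6*, *Jak1*, *Acod1*, *Sms*, *Oaz2* and the markers named were added after their values were seen. *Il13*, *Il13ra2*, *Egr3*, *Egr4*, *Wt1*, *Irf4*, *Ppargc1b* and *Prdm1* are likewise named outside these rules. *Acod1* was found by its older symbol *Irg1*. Positions and transcripts are from GENCODE M21, promoters from RefSeq, aligned with Biopython 1.88. A planned comparison of proteins was not run, and transcripts were compared in its place. The model was tested on simulated data.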

Additional observations from a re-analysis of the deposited data

How the results depend on the processing

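*Chil3* was lower with the JAK inhibitor under all 14 alternatives, with log2 differences from -1.52 to -1.22. The number of genes past an adjusted p of 0.05 in limma was 15, and it was 2 without a filter, 34 with at least 1 FPKM in 3 mice, 2 without the trend, 63 with weights for each library and 3 to 95 with 1 mouse left out. The count of lower genes of alternative activation at an unadjusted p under 0.05 was 5, and was 3 without a filter and 2 to 7 with 1 mouse left out. For the higher genes it was 7, and was 4 without a filter and 2 to 7 with 1 mouse left out. For classical activation the higher genes numbered 4, and were 2 without a filter and 2 to 4 with 1 mouse left out. The cause was not tested. At an adjusted p under 0.05 the lists, with 0 genes each as reported, reached at most 2 genes of alternative activation (without vehicle-treated mouse 2 or 3), 4 of classical activation (with the replicate block), 2 of the IL-10 family and 1 each of the arginine, prostanoid, TGF-beta and NAD lists, and stayed at 0 for the other 3 lists. *Cebpb*, *Il4ra*, *Sat1*, *Ptger4*, *Ptger3*, *Sbno2*, *Nab1* and *Itgam* lost an unadjusted p under 0.05 in at least 1 alternative. *Arg1* and *Egr2* stayed lower in the 12 alternatives in which they passed the filter, between -1.66 and -0.41 and between -1.80 and -0.42, with the far end of each at a pseudocount of 0.1. Without vehicle-treated mouse 3 both fell below the filter, at -0.28 and -0.26. The medians of the alternative activation, prostanoid and chitinase-like lists changed sign between alternatives. Mice with the same number in both groups correlated at 0.0158, 0.0542 and -0.000164 in their deviations from the group means, and not every mouse correlated best with its own number, so the numbers were not taken as pairs; the replicate block gave 67 genes past the adjusted threshold. Without read counts, the precision of genes below 1 FPKM such as *Arg1*, *Il10* and *Ptgs2* cannot be given.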
